A study of Mus musculus with 18 samples.

Results

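Apolipoprotein E and 8 other genes of lipid handling (*Apoe*, *Clu*, *Lpl*, *Lrp1*, *Abca1*, *Abcg1*, *Soat1*, *Plin2* and *Fabp5*) were followed through the brain cell fractions of *Atxn2*-CAG100-KIN and wild-type (WT) mice. The 9 genes were found by symbol among 35960 genes in the transcript count table, where they own 60 of 116873 transcript rows, and the rows were summed by gene. They were taken as selected on the KIN versus WT differences of these same libraries, which were already known, so the KIN versus WT values are given here as a description without p-values. The study compared 3 homozygous *Atxn2*-CAG100-KIN (KIN) mice, in which an expanded CAG repeat was knocked into the endogenous *Atxn2* gene, with 3 WT littermates on a C57BL/6 background, all at an age of 10 months and without treatment. Each brain gave 3 magnetically sorted cell fractions, namely microglia retained by CD11b beads, astrocytes retained by ACSA-2 beads and neurons left over after removal of non-neuronal cells, so that 18 libraries formed 6 groups of 3. The knock-in is present in every cell of the animal, and each fraction is bulk RNA from an enrichment rather than a pure cell type. In such samples a change in the number of cells of a type and a change in RNA per cell cannot be told apart.

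Lipids move between brain cells on lipoprotein particles. *Apoe*, the main apolipoprotein of the brain, and *Clu* (clusterin, apolipoprotein J) are secreted mostly by astrocytes and are loaded with cholesterol and phospholipid by the membrane transporters ABCA1 and ABCG1. Particles are taken up by receptors such as LRP1, lipoprotein lipase (*Lpl*) releases fatty acids from their triglycerides, FABP5 carries fatty acids inside the cell, SOAT1 turns free cholesterol into cholesteryl esters, and perilipin 2 (*Plin2*) coats the droplets in which such esters are stored. Microglia that respond to injury or amyloid are known for high *Apoe* and *Lpl* expression.

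Deduplicated 3′-end reads were counted, and levels are given as CPM, the counts divided by library size and scaled by trimmed mean of M values. Totals were 2118317 to 2829969 counts in the astrocyte, 2334633 to 3296398 in the microglial and 761481 to 2017932 in the neuronal libraries, but the 10 most abundant transcripts took 76.0% to 85.7% of every library. A count of 3, used here as the floor of detection, corresponded to 0.863 to 1.53 CPM in the glial libraries and to 1.92 to 3.99 CPM in the neuronal ones, and it covers counting error only. WT microglia replicate 2 stood apart, with 85.3% of its counts in those 10 transcripts, and several results that move without it are named below. Markers were read in the fractions named for them. The summed level of 6 microglial markers was 432 to 742 CPM in the microglial libraries against 4.03 to 11.3 CPM elsewhere, and that of 6 astrocyte markers was 192 to 424 CPM in the astrocyte libraries against 5.40 to 16.5 CPM elsewhere. The astrocyte libraries also held 317 to 508 CPM of 6 oligodendrocyte markers in WT and 497 to 505 CPM in KIN. In KIN these lay above the astrocyte markers, at 192 to 205 CPM. In WT the ranges overlapped, with 291 to 424 CPM for astrocyte markers. The name astrocytes therefore stands for the sorted fraction. The neuronal fraction was less distinct in its own markers, with 101 to 165 CPM for 6 neuronal markers against 30.2 to 92.3 CPM in the astrocyte libraries. It held more of 4 choroid plexus markers than of neuronal ones in every group. The choroid plexus markers summed to 157 to 431 CPM in WT and 286 to 472 CPM in KIN. The name neurons therefore stands here for the sorted fraction. The 7 border or infiltrating macrophage markers summed to 13.3 to 34.6 CPM in the neuronal libraries, but not all of them were read. In WT neurons only 3 of the 7 had any count, and *Mrc1*, *Cd163*, *Lyve1* and *Pf4* were without counts. In KIN neurons 5 of the 7 had a count, and *Mrc1* and *Pf4* were without counts. Whether such macrophages were present in the neuronal fraction was not tested. WT neuron replicate 2 carried 259 CPM of oligodendrocyte markers against at most 35.2 CPM in the other neuronal libraries. Labels name 3 biological replicates per group but not which fractions came from the same mouse, so p-values measure the spread between 3 libraries.

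The positions of the 9 genes come from GENCODE M39 on GRCm39, the assembly also known as mm39 on which the reads were mapped. All are annotated as protein coding. *Apoe* lies on the minus strand at chr7:19430034-19434947, *Clu* on the plus strand at chr14:66190200-66218999, *Lpl* on the plus strand at chr8:69284603-69360100 and *Lrp1* on the minus strand at chr10:127374012-127457017. *Abca1* lies on the minus strand at chr4:53030787-53159900, *Abcg1* on the plus strand at chr17:31276649-31336969, *Soat1* on the minus strand at chr1:156252095-156303864, *Plin2* on the minus strand at chr4:86565912-86588459 and *Fabp5* on the plus strand at chr3:10077602-10081674.

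2 kinds of sequence bear on how the counts of *Apoe* and *Lpl* can be read. The first is the coding junction between the last 2 exons of *Apoe*, which 8 of its 11 counted transcripts hold in common, so that reads there cannot separate them. It joins chr7:19431404-19431433 to chr7:19430999-19431028 on the minus strand, and capitals mark the last exon.
Apoe, last exon junction: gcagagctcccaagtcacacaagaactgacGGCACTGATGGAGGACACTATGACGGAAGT
The second is the end of exon 2 of *Lpl*, at chr8:69340226-69340255 on the plus strand. It is followed by exon 3 at chr8:69345247-69345276 in the fully spliced coding transcript. In a transcript annotated as a retained intron it is followed by intron 2 at chr8:69340256-69340285, and that transcript ends inside the intron. Capitals mark what follows exon 2, and the first 4 bases after the boundary are the same in both.
Lpl, exon 2 joined to exon 3: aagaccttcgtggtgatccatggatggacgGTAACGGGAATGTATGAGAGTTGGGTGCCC
Lpl, exon 2 running into intron 2: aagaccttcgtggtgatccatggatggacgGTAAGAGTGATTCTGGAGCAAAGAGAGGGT

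**Figure D1:**
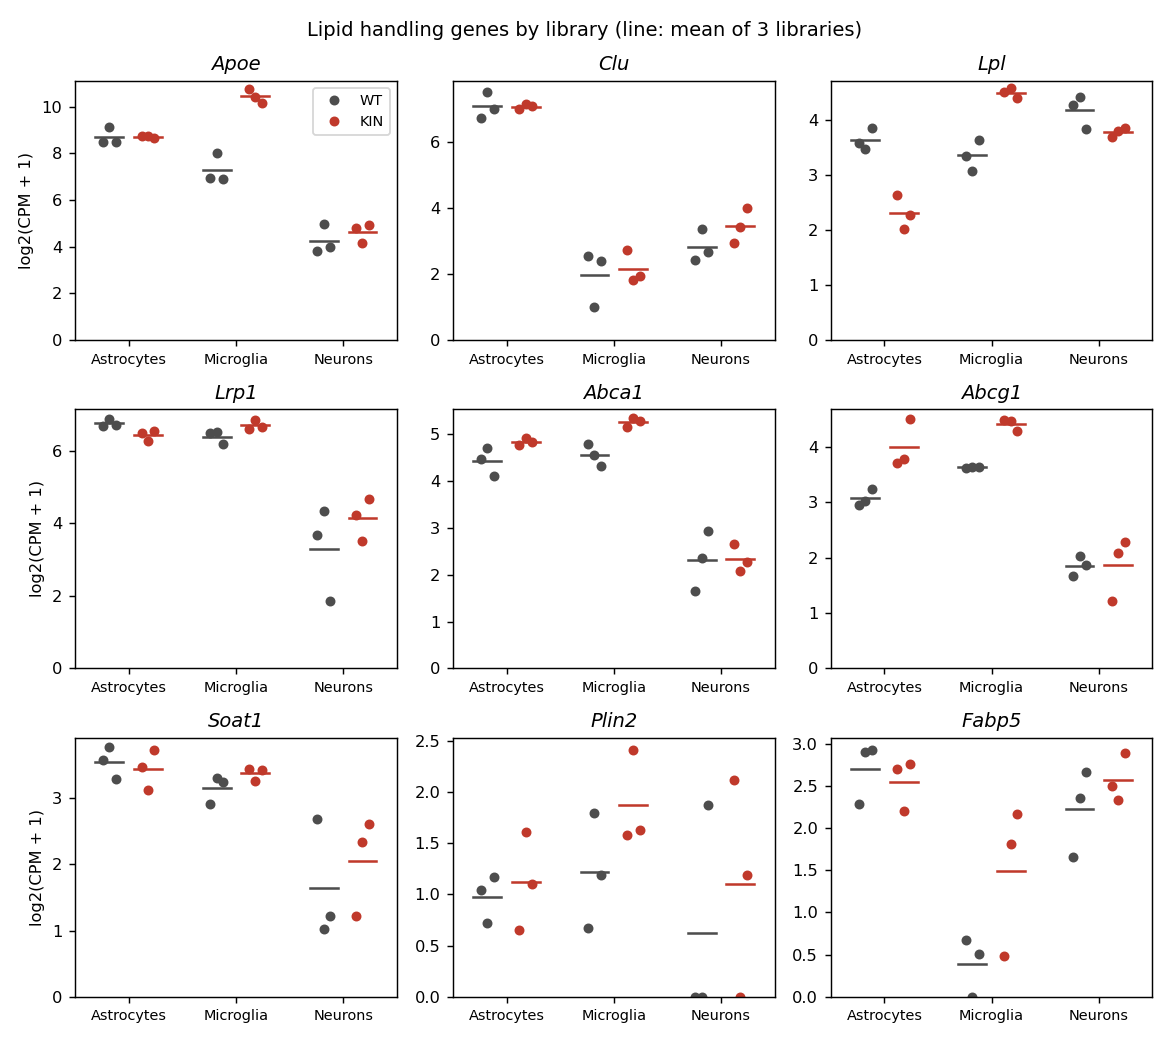
Level of each of the 9 genes in every library, as log2(CPM + 1) on the vertical axis (each panel with its own scale), by fraction, with WT in grey, KIN in red, 1 point per library and a line at the mean of 3. *Apoe* and *Lpl* stand higher in all 3 KIN microglial libraries than in any WT one, and *Lpl* stands lower in all 3 KIN astrocyte libraries.

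The largest KIN versus WT difference among the 9 genes was that of *Apoe* in the microglial fraction. *Apoe* was read at 123, 257 and 117 CPM in the WT and at 1723, 1375 and 1137 CPM in the KIN microglial libraries. The groups were far from overlapping, with the lowest KIN library above the highest WT library, WT replicate 2. The means were 166 ± 78.9 and 1411 ± 295 CPM (SD, n = 3 each), which in the edgeR fit was a log2 fold change (log2FC) of 3.09 ± 0.30 (SE), or 8.53-fold. Without WT microglia replicate 2 the log2FC was 3.54, and over all left-out libraries it ranged from 2.87 to 3.54.

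In the astrocyte fraction no difference in *Apoe* was called. Its level was 356, 562 and 362 CPM in WT and 426, 428 and 407 CPM in KIN libraries, so that the KIN values fell inside the WT range, and the log2FC was -0.04 ± 0.23. In the neuronal fraction *Apoe* was read at 13.0, 30.7 and 14.6 CPM in WT and at 26.6, 17.0 and 29.5 CPM in KIN libraries, from 11 to 46 counts a library, and the groups overlapped (log2FC 0.11 ± 0.34). The order of the fractions for this gene therefore differed by genotype. In WT it was astrocytes, microglia, neurons, whereas in KIN it was microglia, astrocytes, neurons, and in neither genotype did any library of one fraction reach into the next. Within the KIN libraries *Apoe* was 1.75 ± 0.22 log2 units higher in microglia than in astrocytes.

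Markers of other cell types were checked beside this result. The 6 astrocyte markers, whose cells hold *Apoe* at a high level, summed to 14.0 to 16.5 CPM in the WT and 13.5 to 16.5 CPM in the KIN microglial libraries, and *Aqp4* stayed at 0 to 1.19 CPM in WT and 0 to 0.358 CPM in KIN. Microglial markers summed to 432 to 742 CPM in WT and to 507 to 568 CPM in KIN, and none of the 6 was called. The 7 markers of border or infiltrating macrophages moved with the genotype, from 12.4 to 16.6 CPM in WT to 19.4 to 22.6 CPM in KIN, with *Mrc1* (the mannose receptor of border macrophages) at 2.24 ± 0.635 and 6.06 ± 1.22 CPM. None of the 6 of them tested was called. Neuronal markers summed to 10.4 to 45.1 CPM in WT and 6.45 to 7.13 CPM in KIN microglia, with *Slc17a7* and *Snap25* called lower, and oligodendrocyte markers to 21.6 to 28.8 and 12.7 to 15.3 CPM. The endothelial marker *Cldn5* was called lower (6.12 ± 1.57 and 1.33 ± 0.721 CPM), while 5 endothelial markers summed to 38.1 to 50.0 and 46.3 to 50.7 CPM and 4 choroid plexus markers to 31.8 to 100 and 47.6 to 110 CPM. The part of these cells in the *Apoe* difference was not tested. 

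All 11 transcripts of *Apoe* had counts. The 5 most abundant ones, ENSMUST00000174064, ENSMUST00000174355, ENSMUST00000173739, ENSMUST00000003066 and ENSMUST00000167646, took 93.9% to 98.7% of the *Apoe* counts in the WT and 94.9% to 97.9% in the KIN microglial libraries. The shares of these 5 in microglia are given next for WT and KIN, each over the summed counts of 3 libraries. ENSMUST00000174064, the canonical coding model, held 23.3% of the *Apoe* counts in WT and 24.0% in KIN, ENSMUST00000174355 held 22.3% and 20.9%, ENSMUST00000173739 held 18.9% and 20.8%, and ENSMUST00000003066 held 18.9% and 19.8%. These 4 models contain the whole last exon of 995 bases, so the counts of single *Apoe* isoforms are uncertain. ENSMUST00000167646, which has no defined coding sequence, held 12.6% and 10.7%.

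Of the 11 *Apoe* transcripts, 10 were called higher in KIN microglia (adjusted p of at most 0.05 and at least 1 log2 unit), while 0.920% of the 14126 single transcripts tested there were called. The fitted log2FC ran from 2.15 for ENSMUST00000174191, the 1 transcript not called, with 4 WT and 21 KIN counts, to 3.78 for ENSMUST00000207525, a retained-intron model with 5 and 81 counts. The remaining minor models rose in the same range, ENSMUST00000172983 from 13 to 106 counts, ENSMUST00000174144 from 18 to 122, ENSMUST00000172808 from 5 to 56 and ENSMUST00000174710 from 4 to 48. DESeq2 called 5 of the 11. The transcripts ENSMUST00000174191, ENSMUST00000207525, ENSMUST00000172983, ENSMUST00000172808 and ENSMUST00000174710 passed the filter on low counts only through the KIN libraries, where they are high, so the count of 10 is a description. In astrocytes 1 transcript was called, where 8.36% of all transcripts tested were called. This was ENSMUST00000172808, lower in KIN with 40 WT and 14 KIN counts, while the other 10 had log2FC between -1.18 and 0.08. The call held in 4 of 13 alternative fits. In neurons only 3 of the 11 had enough counts to be tested and none was called, against 0.0181% of all transcripts.

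**Figure D2:**
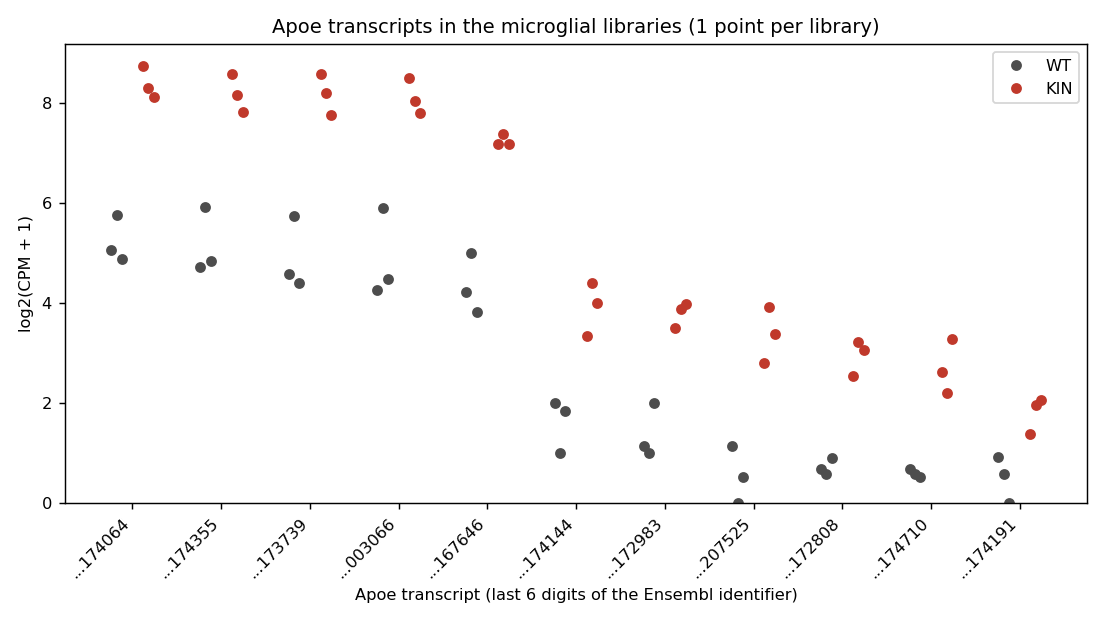
Level of each of the 11 *Apoe* transcripts in the 6 microglial libraries, as log2(CPM + 1), ordered by total count and named by the last 6 digits of the Ensembl identifier, with WT in grey and KIN in red. The KIN libraries lie above the WT libraries for every transcript, and the 5 leftmost carry at least 93.9% of the *Apoe* counts in each of these libraries.

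*Lpl*, the enzyme that frees fatty acids from lipoproteins, differed in opposite directions in the glial fractions. In microglia it was read at 9.20, 7.42 and 11.4 CPM in WT and at 21.8, 22.9 and 20.2 CPM in KIN, with no overlap between the groups. The means were 9.36 ± 2.01 and 21.6 ± 1.38 CPM (SD, n = 3 each) and the log2FC was 1.20 ± 0.25. In astrocytes it was read at 10.9, 10.1 and 13.5 CPM in WT and at 5.18, 3.07 and 3.83 CPM in KIN, again without overlap but now lower in KIN. The means were 11.5 ± 1.76 and 4.03 ± 1.07 CPM and the log2FC was -1.47 ± 0.31. In neurons the values were 18.4, 20.5 and 13.3 CPM in WT and 12.0, 12.9 and 13.5 CPM in KIN. The neuronal groups overlapped only through WT replicate 3, and the gene was not called (log2FC -0.66 ± 0.34). The microglial call of *Lpl* was lost when WT replicate 1 (log2FC 1.16) or KIN replicate 1 (1.19), 2 (1.16) or 3 (1.25) was left out, while the astrocyte call held in every alternative, with log2FC between -1.72 and -1.28.

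Markers of several cell types differed between the genotypes in the astrocyte libraries, in both directions. The 6 astrocyte markers summed to 291 to 424 CPM in WT and to 192 to 205 CPM in KIN, with *Fgfr3* and *Gja1* called lower, while *Gfap* went the other way without being called (9.73 ± 4.79 and 17.0 ± 1.44 CPM). The 6 neuronal markers had overlapping sums of 34.4 to 92.3 and 30.2 to 50.1 CPM, with *Gad1*, *Rbfox3*, *Slc17a7* and *Snap25* called lower and *Tubb3* at 7.76 ± 2.25 and 15.1 ± 5.53 CPM, not called. The border or infiltrating macrophage markers summed to 6.49 to 11.6 and 1.53 to 3.74 CPM, with *Ccr2* and *Ms4a7* called lower. The choroid plexus markers summed to 80.2 to 98.3 and 107 to 219 CPM, with *Folr1* called higher. The oligodendrocyte markers had overlapping sums of 317 to 508 and 497 to 505 CPM, with *Mog* called higher. The part of these cell types in the *Lpl* difference was not tested. *Apoe* and *Clu*, which astrocytes also express, had log2FC of -0.04 and -0.06 in the same libraries.

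The transcript rows of *Lpl* were examined after their values had been seen. The gene has 5 rows, of which 2 hold nearly all counts, the fully spliced coding transcript ENSMUST00000015712 with 10 exons and ENSMUST00000101463 with 2 exons, whose second exon of 2239 bases, chr8:69340095-69342333, runs from exon 2 into intron 2 as in the sequence printed above. That exon ends inside the intron, before exon 3, and the transcript is called intron-retaining after its annotation. In microglia the spliced transcript had 19, 7 and 14 counts in WT and 45, 48 and 37 counts in KIN. The KIN libraries were all higher, at 5.01 ± 1.35 CPM in WT and 16.0 ± 2.70 CPM in KIN (log2FC 1.56 ± 0.32). The intron-retaining transcript had 11, 8 and 11 counts in WT and 6, 12 and 17 counts in KIN, which overlap (log2FC 0.05 ± 0.40). Its share of the *Lpl* counts was 41.1% in WT (30 of 73 counts, exact 95% interval 29.7% to 53.2%) and 19.8% in KIN (35 of 177 counts, 14.2% to 26.4%), and the 3 KIN libraries, at 10.9% to 29.3%, lay below the WT libraries, at 35.5% to 53.3%. The intervals cover counting error only.

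In astrocytes both *Lpl* transcripts were lower in KIN. The spliced one had 18, 17 and 23 counts in WT and 13, 2 and 7 in KIN, and the intron-retaining one 13, 14 and 19 in WT and 5, 4 and 3 in KIN. Neither overlapped in CPM between genotypes, and the retained share was 43.8% (34.1% to 53.8%) in WT and 35.3% (19.7% to 53.5%) in KIN. In the neuronal fraction most *Lpl* counts belonged to the intron-retaining transcript, 36 of 47 in WT (76.6%, 62.0% to 87.7%) and 39 of 55 in KIN (70.9%, 57.1% to 82.4%). The spliced *Lpl* transcript was at 3.24, 4.10 and 5.32 CPM in WT neurons and 1.99, 2.43 and 4.49 CPM in KIN neurons, from 3 to 7 counts a library. RNA was tailed enzymatically before library preparation, and whether the reads of intron 2 come from mature or from unspliced RNA was not tested.

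**Figure D3:**
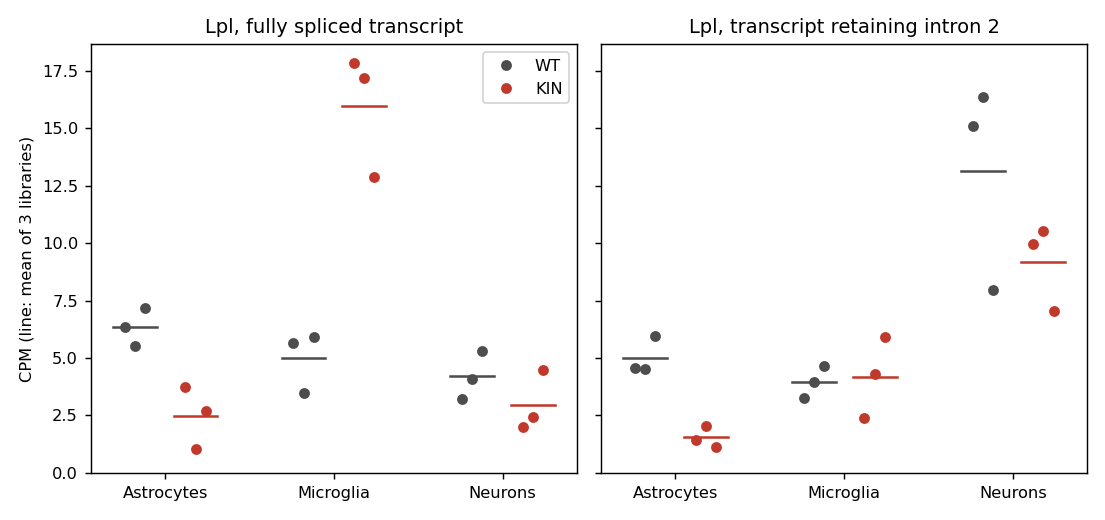
CPM of the fully spliced *Lpl* transcript (left) and of the transcript annotated as retaining intron 2 (right) in every library, by fraction, with WT in grey, KIN in red, 1 point per library and a line at the mean of 3. The spliced transcript is highest in KIN microglia, at 12.9 to 17.8 CPM, whereas the intron-retaining transcript is highest in WT neurons on average, at 13.2 CPM.

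Both efflux transporters had a higher mean in KIN than in WT in the microglial and astrocyte fractions, but most of these differences were not called. *Abca1*, which starts the loading of lipid onto apolipoproteins, was read at 26.7, 22.8 and 19.1 CPM in WT and 34.9, 39.7 and 38.3 CPM in KIN microglia, without overlap (log2FC 0.71 ± 0.23). In astrocytes it was read at 21.1, 25.3 and 16.3 CPM in WT and at 26.5, 29.2 and 27.6 CPM in KIN, where the lowest KIN library lay just above the highest WT library (log2FC 0.39 ± 0.22). Neither difference was called. In neurons *Abca1* had 2 to 8 counts a library, with 4.30 ± 2.25 CPM in WT and 4.13 ± 1.07 CPM in KIN.

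*Abcg1*, which adds cholesterol to particles that already carry lipid, was the 1 transporter called, and only in astrocytes. It was read there at 6.70, 7.14 and 8.45 CPM in WT and at 12.1, 12.8 and 21.8 CPM in KIN, the groups did not overlap, and KIN replicate 3 stood highest (log2FC 1.04 ± 0.27). The call was lost with DESeq2 (log2FC 1.04) and without WT replicate 1 (0.96), WT replicate 2 (1.00) or KIN replicate 3 (0.72). In microglia the values were 11.3, 11.4 and 11.4 CPM in WT and 21.4, 21.1 and 18.4 CPM in KIN, which did not overlap either, but the log2FC of 0.84 ± 0.24 was not called. Whether the *Abcg1* difference was of another size in the 2 glial fractions was not tested. In neurons it had 2 to 6 counts a library and was not tested.

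The 250 bases before the canonical start sites of both transporters are shown because both had a positive log2FC in both glial fractions, although only that of *Abcg1* in astrocytes was called. Both are known targets of liver X receptors, whose sites vary in their letters, and such variants were not searched. Capitals mark matches on either strand to 3 motifs, out of 5 searched. The TATA box was spelled TATAAA. The GC box was spelled GGGCGG, and its reverse complement is what stands in capitals on the opposite strand. The E-box was spelled CACGTG. A half-site of nuclear receptors, AGGTCA, was searched as well. The core bound by PU.1, GAGGAA, was the last. Build and strand are GRCm39, minus strand, chr4:53159901-53160150 for *Abca1*, and GRCm39, plus strand, chr17:31276411-31276660 for *Abcg1*.
Abca1: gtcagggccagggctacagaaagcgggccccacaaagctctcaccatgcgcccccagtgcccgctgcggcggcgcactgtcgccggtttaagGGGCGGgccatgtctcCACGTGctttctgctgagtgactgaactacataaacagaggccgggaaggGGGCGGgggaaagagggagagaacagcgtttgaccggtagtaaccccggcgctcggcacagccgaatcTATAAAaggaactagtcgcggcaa
Abcg1: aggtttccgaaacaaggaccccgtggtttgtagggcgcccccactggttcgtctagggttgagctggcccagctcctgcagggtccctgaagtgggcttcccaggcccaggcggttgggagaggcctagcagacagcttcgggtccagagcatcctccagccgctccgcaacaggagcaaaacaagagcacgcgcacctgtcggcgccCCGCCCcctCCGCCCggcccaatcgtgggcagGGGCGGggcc
The GC box was found in 5 of the 9 windows (*Clu*, *Lrp1*, *Abca1*, *Abcg1* and *Fabp5*) and in 36.3% of the 21770 windows of protein-coding genes. TATAAA was found in 2 of 9 (*Lpl* and *Abca1*) and in 11.9% of all windows, CACGTG in 1 (*Abca1*) and 6.26%, AGGTCA in 1 (*Plin2*) and 13.1%, and GAGGAA in 1 (*Lpl*) and 22.9%. The window of the canonical *Apoe* model, chr7:19433887-19434136, held none of these letters, and several other *Apoe* models start at other positions.

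The receptor *Lrp1* differed little. It was read at 88.5, 90.1 and 71.6 CPM in WT and at 96.7, 115 and 101 CPM in KIN microglia, slightly higher in every KIN library (log2FC 0.32 ± 0.22), and at 101, 118 and 105 CPM in WT and 89.5, 76.7 and 91.8 CPM in KIN astrocytes, lower in every KIN library (log2FC -0.34 ± 0.21). Neither was called. In neurons *Lrp1* ranged from 2.66 to 19.5 CPM in WT and from 10.5 to 24.3 CPM in KIN.

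*Clu*, the second abundant apolipoprotein of astrocytes, was called in no fraction, including microglia, where *Apoe* was called. In microglia it was read at 4.75, 0.99 and 4.24 CPM in WT and at 5.55, 2.51 and 2.78 CPM in KIN, from 2 to 16 counts, and the groups overlapped (log2FC 0.01 ± 0.48). In astrocytes the values were 104, 181 and 125 CPM in WT and 125, 139 and 133 CPM in KIN, with the KIN libraries inside the WT range (log2FC -0.06 ± 0.22). In neurons 4 to 9 counts in WT and 10 to 23 in KIN gave 6.29 ± 2.59 and 10.4 ± 4.08 CPM (log2FC 0.50 ± 0.48).

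Genes of storage and of intracellular transport were read at low counts. *Soat1* had 18 to 22 counts in WT and 24 to 28 in KIN microglia (log2FC 0.27 ± 0.28) and 28 to 39 and 15 to 35 counts in astrocytes (log2FC -0.10 ± 0.27), overlapping in CPM in both. *Plin2* had 2, 5 and 3 counts in WT and 5, 12 and 6 counts in KIN microglia. These are near the floor, and they overlapped in CPM (log2FC 1.07 ± 0.59). *Plin2* had at most 4 counts in any astrocyte library, where it was not tested, and 0 to 5 counts in neuronal libraries. *Fabp5* had 2, 0 and 1 counts in WT and 1, 7 and 10 counts in KIN microglia. The ratio of the summed counts, allowing for library size, was 5.68 with an exact 95% interval of 1.66 to 30.1 for counting error only, but KIN replicate 1 lay inside the WT range and the gene was not called. Its fitted log2FC was 2.37 and ranged from 1.97 to 2.99 on leaving out 1 library, where it was tested. In astrocytes *Fabp5* had 11 to 21 counts in WT and 7 to 19 in KIN (log2FC -0.18 ± 0.33).

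Over the 9 genes in microglia, 2 were called (*Apoe* and *Lpl*), both higher in KIN, where 1.52% of the 10831 genes tested were called and 0.739% were called higher. That background itself moved with single libraries, from 165 genes to 452 without WT replicate 2 and to 35 to 48 without any other 1 library. All 9 passed the filter of at least 5 reads in at least 2 libraries, *Plin2* and *Fabp5* only with the help of the KIN libraries, 5 did not overlap between the genotypes (16.0% of all genes did not), and 9 had a log2FC above 0 (49.8% of all genes), although that of *Clu* was -0.07 under another setting and -0.42 without 1 library. The median log2FC was 0.84, and that of all genes was -0.0037. In astrocytes 8 were tested and 2 were called, *Lpl* lower and *Abcg1* higher, where 8.85% of 11751 genes were called, and 4 did not overlap (27.9% of all genes). Their median log2FC was -0.08, and that of all genes was -0.01. In neurons 7 were tested, 0 were called by edgeR or DESeq2 (0.0148% of 6765 genes were called) and 0 were free of overlap (13.9% of all genes). Because the genes were chosen with these contrasts known, nothing is read from their counts.

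**Figure D4:**
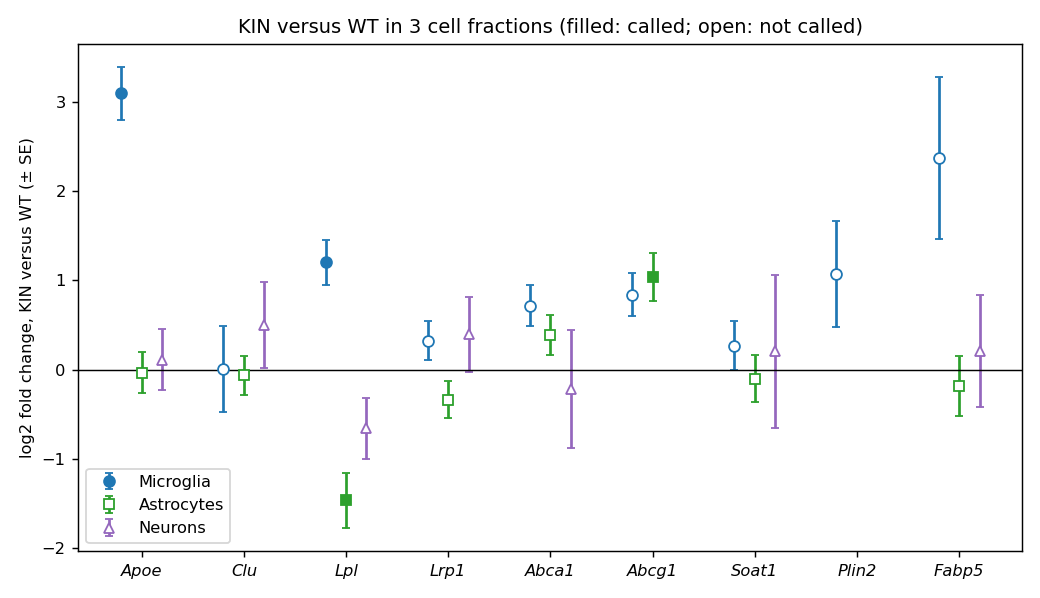
Fitted log2FC of KIN versus WT with its SE for each gene in microglia (blue circles), astrocytes (green squares) and neurons (purple triangles), filled where called and open where not, with untested genes left out. *Apoe* in microglia stands at 3.09, and *Lpl* at 1.20 in microglia and -1.47 in astrocytes.

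Where each gene is read in WT brain was tested across the 9 WT libraries in one edgeR fit, with Benjamini-Hochberg adjustment over 12305 genes. The fractions came from the same mice, but the fit treats these libraries as independent. The median of all genes was not 0 in these contrasts, at -0.04 log2 units for microglia versus astrocytes, -0.35 for neurons versus astrocytes and -0.30 for neurons versus microglia, and the neuronal medians moved to -0.66 and -0.48 when scaling left out the 10 most abundant transcripts. Of the 8 genes tested, 3 were called between microglia and astrocytes (25.1% of all genes were), all lower in microglia. *Apoe* was 1.35 ± 0.32 log2 units lower in microglia (edgeR adjusted p = 0.000406), and without WT microglia replicate 2 its log2FC was -1.78. *Clu* was 5.25 ± 0.40 log2 units lower (edgeR adjusted p = 2.08e-23), at 3.33 ± 2.04 CPM in microglia against 137 ± 39.6 CPM in astrocytes. *Fabp5*, with 3 counts in all WT microglia against 52 in astrocytes, had a ratio of 0.0679 (exact 95% interval 0.0136 to 0.210, counting error only). It passed the filter only through the astrocyte libraries, where it is high, so its call is a description and no p is given. *Lpl* (adjusted p = 0.642), *Lrp1* (0.47), *Abca1* (0.776), *Abcg1* (0.175) and *Soat1* (0.412) were not called between the glial fractions by edgeR.

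*Apoe* and *Lrp1* were lower in neurons than in both glial fractions. Against astrocytes 5 of 8 were called (18.0% of all genes), all lower in neurons, but *Clu*, *Abca1* and *Soat1* had at least 5 counts in only 1 neuronal library each and passed the filter through the glial ones, where they are high. Their calls, and so the count of 5, are a description, and no p is given for them. *Apoe* was at 19.4 ± 9.81 CPM in neurons and 427 ± 117 CPM in astrocytes (log2FC -4.41 ± 0.39, edgeR adjusted p = 1.41e-19) and *Clu* at 6.29 ± 2.59 and 137 ± 39.6 CPM (-4.38 ± 0.42). *Lrp1* was at 11.3 ± 8.41 and 108 ± 8.81 CPM (-3.16 ± 0.39, edgeR adjusted p = 1.57e-11), *Abca1* at 4.30 ± 2.25 and 20.9 ± 4.53 CPM (-2.28 ± 0.47) and *Soat1* at 2.58 ± 2.44 and 10.8 ± 1.95 CPM (-1.97 ± 0.55). The *Soat1* call was lost without WT neuron replicate 2 (log2FC -1.52), and without WT neuron replicate 1 the log2FC was -3.12. *Lrp1* moved to -3.75 without WT neuron replicate 2. The 6 astrocyte markers summed to 5.40 to 8.19 CPM in these neuronal libraries against 291 to 424 CPM in the astrocytes, and the part of astrocyte RNA in the neuronal *Apoe* and *Clu* values was not tested.

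Against microglia 5 of 8 were called (16.9% of all genes), of which *Abca1*, *Abcg1* and *Fabp5* were below the filter in neurons and passed it through glial libraries, so that their calls and the count are again a description without p. Lower in neurons were *Apoe* (log2FC -3.07 ± 0.37, edgeR adjusted p = 1.11e-11), *Lrp1* (-2.81 ± 0.39, edgeR adjusted p = 1.52e-09), *Abca1* (-2.43 ± 0.47) and *Abcg1* (-2.07 ± 0.55), which reached 5 counts in no WT neuronal library. With the transcript of highest mean the log2FC of *Abcg1* was -3.49. Without WT neuron replicate 2 the log2FC of *Lrp1* was -3.41, and without WT microglia replicate 2 that of *Apoe* was -2.60. *Fabp5* was read higher in neurons, with 10 counts against 3 in deeper microglial libraries, a ratio of 9.73 (exact 95% interval 2.51 to 55.0, counting error only). It was below the filter in both of these fractions and was tested only because astrocytes passed it. This *Fabp5* call was lost with the transcript of highest mean (log2FC 2.59), and its log2FC moved from 3.13 to 3.75 without WT microglia replicate 1. *Lpl* was not called, at 17.4 ± 3.69 CPM in neurons, 11.5 ± 1.76 CPM in astrocytes and 9.36 ± 2.01 CPM in microglia. Its direction depended on the transcript counted, since the sum over transcripts gave 0.65 (neurons versus astrocytes) and 0.91 (neurons versus microglia), whereas the *Lpl* transcript of highest mean in that fit gave -0.78 and -0.39 log2 units.

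Another 91 genes of lipid handling, in 7 groups by role, were read in the same fits. In microglia 58 were tested and 2 were called, or 3.45%, where 1.52% of all genes were called (1.63% passed the adjusted p alone). Both were higher in KIN. *Apoc1*, an apolipoprotein gene next to *Apoe*, had 0, 0 and 0 counts in WT and 8, 9 and 5 counts in KIN microglia, at least 6.94-fold higher against a floor of 3 counts over the WT group. It passed the filter on low counts only through the KIN libraries, where it is high, so its call is a description and no p is given. *Npc2*, which hands cholesterol out of lysosomes, was read at 17.8, 23.8 and 11.4 CPM in WT and 46.8, 38.0 and 28.2 CPM in KIN, without overlap (log2FC 1.10 ± 0.27, edgeR adjusted p = 0.034). Both calls depended on single libraries. That of *Npc2* was lost without any 1 of 5 libraries (WT replicate 1 or 3, or KIN replicate 1, 2 or 3, edgeR adjusted p = 0.064 to 0.28), and that of *Apoc1* without WT replicate 1 or 3 or KIN replicate 1 or 2. The median log2FC of the 58 was 0.05 against -0.0037 for all genes.

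In astrocytes 66 of the 91 were tested, 10 or 15.2% passed the adjusted p (11.9% of all genes did) and 4 or 6.06% were called (8.85% of all genes were), with a median log2FC of 0.06 over the 66. Among carriers, *Apod* (apolipoprotein D) was higher in KIN at 42.5 ± 10.3 and 111 ± 7.55 CPM (log2FC 1.37 ± 0.22, edgeR adjusted p = 1.42e-05), as was *Pltp*, which moves phospholipid between particles (0.89 ± 0.24, edgeR adjusted p = 0.00917). *Lcat*, which esterifies cholesterol on the particle, was lower at 9.14 ± 1.14 and 3.86 ± 2.06 CPM (-1.14 ± 0.33, edgeR adjusted p = 0.0144), a call lost with DESeq2, with all 18 libraries in one fit and without WT replicate 1 or KIN replicate 2 or 3 (edgeR or DESeq2 adjusted p = 0.0501 to 0.114). Among fatty acid genes, the acyl-CoA synthetases *Acsl3* (30.2 ± 8.09 and 11.8 ± 0.933 CPM, log2FC -1.37 ± 0.24, edgeR adjusted p = 6.5e-05) and *Acsl6* (39.5 ± 9.85 and 18.2 ± 2.07 CPM, -1.13 ± 0.22, edgeR adjusted p = 0.00039) were lower, and *Dbi*, the acyl-CoA binding protein, was higher (0.78 ± 0.21, edgeR adjusted p = 0.00893). Without WT replicate 2 the log2FC of *Acsl6* was -0.92, under the size needed for a call.

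The other genes past the adjusted p in astrocytes changed by less than 1 log2 unit. The transporter *Abca2* (log2FC 0.72 ± 0.21, edgeR adjusted p = 0.0164), the droplet protein gene *Plin3* (0.79 ± 0.26, edgeR adjusted p = 0.0352) and *Dgat1*, which makes triglyceride (0.95 ± 0.33, edgeR adjusted p = 0.0477), were higher in KIN. *Insig1*, a sterol-regulated brake on cholesterol synthesis, was lower (-0.92 ± 0.24, edgeR adjusted p = 0.00744). These 4 and *Pltp* and *Dbi* each missed the threshold in at least 1 alternative, with a highest adjusted p by edgeR or DESeq2 of 0.0981 for *Abca2*, 0.19 for *Plin3*, 0.246 for *Dgat1*, 0.098 for *Insig1*, 0.403 for *Pltp* and 0.106 for *Dbi*. By role, 3 of 4 tested carriers, 3 of 10 fatty acid genes, 2 of 8 droplet and esterification genes, 1 of 11 efflux genes, 1 of 12 sterol transport genes, 0 of 12 receptors and 0 of 9 lipase genes passed the adjusted p. *Apod* and *Abca2* are also expressed in oligodendrocytes, of whose 6 markers all had a higher mean in these KIN libraries, 1 was called (*Mog*, 12.1 ± 1.92 and 29.6 ± 2.02 CPM) and *Mag*, not called, did not overlap (76.6 ± 20.3 and 133 ± 6.11 CPM), and the part of those cells was not tested. In neurons 33 were tested and 0 called by edgeR, with 1 at an unadjusted p below 0.05 and 0 by DESeq2.

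**Figure D5:**
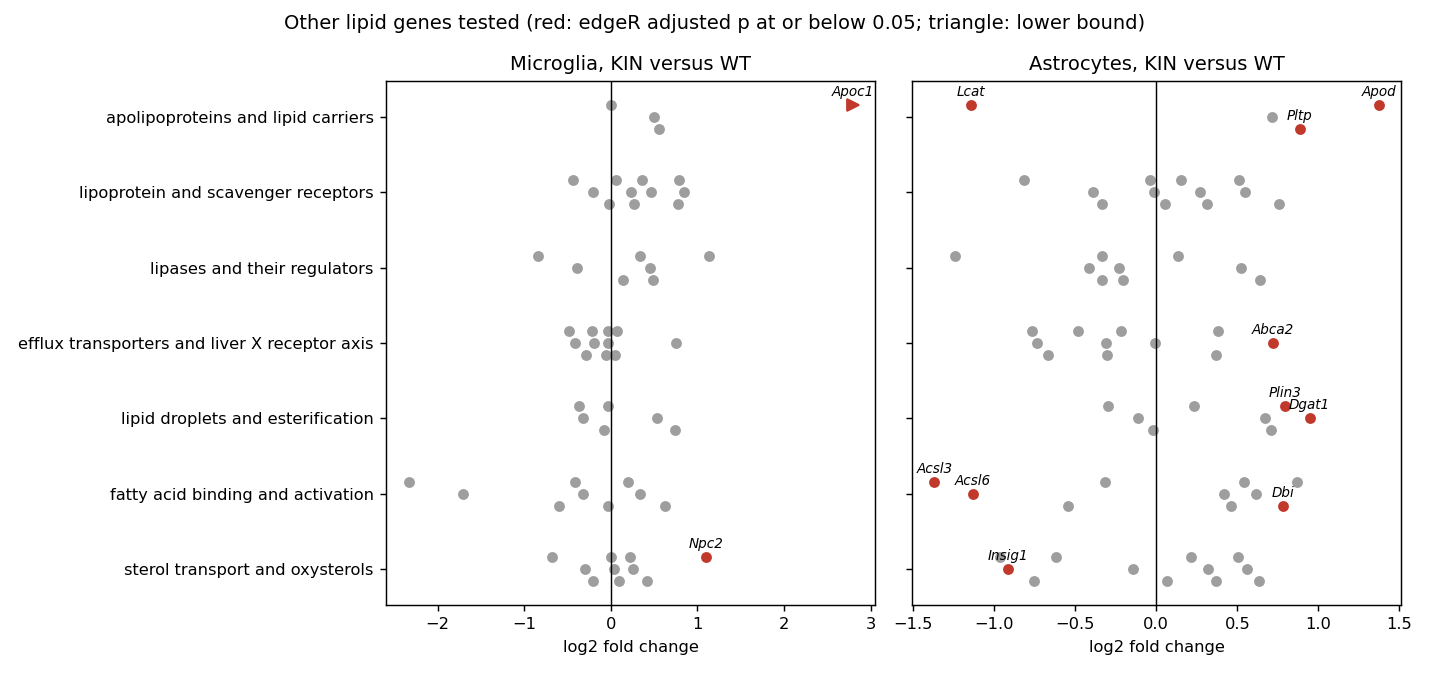
Fitted log2FC of KIN versus WT for the other lipid genes tested in microglia (left, 58 genes) and astrocytes (right, 66 genes), in rows by role, with genes past the edgeR adjusted p in red and named. *Apoc1*, with 0 WT counts, is drawn as a triangle at the log2 of its lower bound of 6.94-fold. The axes of the panels differ in range.

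The most abundant of the 91 genes in each role were followed whatever their change. *Apod* led the carriers in mean level over the 18 libraries, and in microglia its log2FC was 0.01 ± 0.51. *Trem2*, the lipid-sensing receptor of microglia, was at 98.6 ± 41.1 CPM in WT and 135 ± 18.3 CPM in KIN microglia (log2FC 0.46 ± 0.26, edgeR adjusted p = 0.519), the groups overlapping through WT replicate 2. Without that library the *Trem2* log2FC was 0.84 (edgeR adjusted p = 0.00508). *Lipe* (hormone-sensitive lipase) was at 22.2 ± 4.83 and 24.7 ± 2.72 CPM there (edgeR adjusted p = 0.922), *Plin3* at 4.41 ± 0.564 and 6.54 ± 2.35 CPM (0.624) and *Abca2* at 5.33 ± 1.27 and 3.77 ± 1.02 CPM (0.702). *Slc27a1*, a fatty acid transporter, was at 53.2 ± 9.07 and 36.5 ± 6.39 CPM in astrocytes (log2FC -0.54 ± 0.21, edgeR adjusted p = 0.0839), and *Npc1*, the partner of NPC2 in lysosomes, at 22.6 ± 4.43 and 33.8 ± 2.07 CPM (0.56 ± 0.22, edgeR adjusted p = 0.0819). In microglia *Npc1* was at 18.6 ± 5.67 and 18.5 ± 2.51 CPM. The difference of the genotype effect between microglia and astrocytes was tested for the 16 named genes of the 91 in one fit of 13277 genes, and none passed. *Apoc1*, *Lcat*, *Trem2* and *Acsl6* had at most 3 counts in a whole group of these fractions, so no p is given for them here. For the others the edgeR adjusted p was 0.148 to 0.881. Genes named for passing the adjusted p in 1 of these fractions were chosen on part of this difference.

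The genes whose pattern was most like that of *Apoe* were found by Pearson correlation of log2 CPM among genes of at least 10 CPM on average. Over all 18 libraries, and among 1669 genes, these were *Abca1* (r = 0.94), *Lamp1* (0.93), *Grtp1* (0.93), *Psap* (0.93) and *Ccdc85c* (0.92). Among the other lipid handling genes of sufficient level, r was 0.89 for *Lrp1*, 0.89 for *Abcg1*, 0.26 for *Clu* and -0.13 for *Lpl*. The 18 libraries share fraction and depth, the neuronal libraries being both shallow and low in *Apoe*. Within the 6 microglial libraries, and among 1788 genes, the nearest were *Cd63* (r = 0.999), *Rps15a* (0.997), *Axl* (0.995), *Ctsl* (0.992) and *Ctsb* (0.985), followed among the lipid genes by *Abcg1* (0.97), *Abca1* (0.89), *Lpl* (0.88) and *Lrp1* (0.81). These 6 points are 2 genotype groups, so any gene that separates them ranks high. *Axl*, a receptor for apoptotic cells, was at 5.43 ± 1.83 CPM in WT and 32.0 ± 7.45 CPM in KIN microglia, the tetraspanin gene *Cd63* at 23.3 ± 5.65 and 62.0 ± 4.97 CPM, and the cathepsin gene *Ctsb* at 60.1 ± 8.03 and 137 ± 9.41 CPM.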

How the data were processed

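Brain cells of 10-month-old mice were sorted sequentially with magnetic beads, RNA was extracted with TRIzol, depleted of ribosomal RNA and tailed, and MACE-seq libraries with unique molecular identifiers were sequenced. According to the study's methods and the submitters' processing notes, the authors trimmed reads with cutadapt 4.6, mapped them to mm39 with Bowtie2 2.4.4 and counted them with HTSeq 2.0.2 without regard to strand, so reads of overlapping antisense genes cannot be separated. The deposited table holds raw read counts per transcript. Its 36 other per-sample columns (TPM and normalised values), group means and the columns of the authors' own DESeq2 comparisons were not used.

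Here counts were summed by symbol (137 rows without one kept by identifier). KIN and WT were compared within each fraction with the quasi-likelihood test of edgeR 4.0.16 in R 4.3.3 (TMM, at least 5 reads in at least 2 libraries, Benjamini-Hochberg over all genes), and calls needed a change of 1 log2 unit or more with an adjusted p no larger than 0.05. The 3 fractions of WT, and separately of KIN, were fitted together. CPM values used TMM over all 18 libraries. DESeq2 1.42.0, other scalings, filters, a replicate block and leaving out each library were alternatives. The fits were tested only on simulated counts of even spread, with large changes in well-counted genes. How they handle low counts or a library that stands apart was not tested. The genes and lists were chosen with earlier results of these data known. Named were the 9 genes in every fraction, all *Apoe* transcripts, the other lipid genes past the adjusted p in glia, the most abundant gene of each role and the 5 genes most like *Apoe*. Positions and sequences come from GENCODE M39 on GRCm39. Same-numbered libraries did not deviate together between genotypes. Libraries of 1 group differed by more than sampling noise.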

Additional observations from a re-analysis of the deposited data

Results flagged for a closer look

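*Lpl* moved in opposite directions in the glial fractions, every KIN library lying above every WT library in microglia (log2FC 1.20) and below every WT library in astrocytes (log2FC -1.47). *Lrp1* showed the same opposite order with a smaller size, at 0.32 in microglia and -0.34 in astrocytes, and was called in neither. The difference between the fractions was not tested for either gene.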

How the results depend on the processing

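Of the 9 genes, 2 were called in microglia and 2 in astrocytes, and leaving out 1 library gave 1 to 2 in either, as did DESeq2 in astrocytes with 1. None was called in neurons under any setting. The 3, 5 and 5 genes called between WT fractions (microglia or neurons versus astrocytes, neurons versus microglia) became 2 to 3, 4 to 6 and 4 to 6. Of the other lipid genes, the 2 called in microglia became 1 with DESeq2, 1 with a mean of at least 10 counts, 0 with the transcript of highest mean and 0 to 2 on leaving out a library. The 4 called in astrocytes became 10 by adjusted p alone and 3 to 6 without 1 library. The 10 *Apoe* transcripts called in microglia became 5 with DESeq2 and 9 to 10 without 1 library, and the 1 in astrocytes became 0 with DESeq2, 0 with no filter, 0 with a mean of at least 10 counts, 0 with all 18 libraries in one fit and 0 to 1 without 1 library. A replicate block was also fitted. Same-numbered WT and KIN libraries had correlations of -0.064 to 0.054, which do not support a pairing of the genotypes. Same-numbered WT microglial and astrocyte libraries had correlations of 0.064, 0.21 and 0.098, and labels do not say whether these share a mouse. The other pairs of fractions gave -0.037 to 0.027. With the block, the counts for microglia, astrocytes and neurons were 2, 2 and 0 for the 9 genes. They were 2, 5 and 0 for the other lipid genes and 10, 1 and 0 for *Apoe* transcripts. Between fractions the counts for the 9 genes were 3, 5 and 6. Some values changed sign. *Lpl*, at 0.65 and 0.91 summed over transcripts, with the transcript of highest mean stood at -0.78 in neurons versus astrocytes and -0.39 in neurons versus microglia. *Abca1* in WT microglia versus astrocytes ranged from -0.031 (without astrocyte WT replicate 3) to 0.36. In microglia, KIN versus WT, *Lipe* ranged from -0.026 to 0.26, *Apod* from -0.29 to 0.19 and *Npc1* from -0.19 to 0.22 without 1 library. *Apod* was -0.00264 with DESeq2 size factors, -0.063 with scaling that left out the 10 most abundant transcripts, -0.015 with no filter and -0.23 with the transcript of highest mean, and *Npc1* was -0.015 with DESeq2, -0.00531 with its size factors, -0.067 with that scaling, -0.018 with no filter and -0.00410 with a mean of at least 10 counts. Over all genes, the 165 calls in microglia were 48 with DESeq2, 276 with no filter, 95 with a mean of at least 10 counts, 77 with the transcript of highest mean, 452 without WT replicate 2 and 35 to 48 without any other 1 library, the 1040 in astrocytes were 401 with DESeq2, 606 without WT replicate 1, 572 without WT replicate 3 and 1528 without WT replicate 2, the 1 in neurons was 0 to 28, and the 3086 between WT microglia and astrocytes were 1701 with a mean of at least 10 counts, as the 2081 between WT neurons and microglia were 1373. The cause was not tested. Depth limits *Plin2*, *Fabp5* and all neuronal values.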
